A study of Drosophila melanogaster with 3 samples.

Results

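The nuclear genes of respiratory complexes II to V were examined for binding of the transcription factor M1BP in whole Drosophila melanogaster embryos. Members were taken by name from the protein-coding genes annotated on the 6 main chromosome arms: symbols beginning with SdhA to SdhD (complex II), UQCR or Cyt-c1 (complex III), Cyt-c (cytochrome c), COX and a digit (complex IV) or ATPsyn (complex V, the ATP synthase). This gave 51 of 13945 genes, of which 32 are named as subunits and 19 as paralogs of a subunit, with 17 symbols ending in L and 2 in L2. A gene was called bound when the summit of a peak in the authors' thresholded list lay within 250 bp of one of its start sites. The rule uses gene names and no measured value, although it was set with earlier results of these data known.

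Complex II (succinate dehydrogenase) passes electrons from the citric acid cycle to ubiquinone, complex III passes them on to the mobile carrier cytochrome c, and complex IV hands them to oxygen. Complexes III and IV pump protons across the inner mitochondrial membrane, and the ATP synthase uses the resulting gradient to make ATP. Most subunits are encoded in the nucleus and needed in nearly all cells, while many of the fly's duplicated genes for mitochondrial proteins are known to be active mainly in the testis. M1BP (Motif 1 binding protein, the product of CG9797) is a zinc-finger factor that binds Motif 1, a sequence element of core promoters of broadly active genes, and it has been linked to pausing of RNA polymerase II just after the start site.

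Chromatin immunoprecipitation with sequencing (ChIP-seq) was carried out on 1 group of 3 biological replicates, all from a fly line that stably carries CG9797 with green fluorescent protein (GFP) at its C-terminus. The embryos were 0 to 24 h old and of both sexes, so each library mixes many tissues and ages, and neither an untagged line nor another stage is part of the group. A larger share of cells with a bound promoter and more binding per cell cannot be told apart in such material. The labels contradict each other: in a free-text line the libraries are called input controls, but the assay title, an antibody entry for CG9797 and a control listed apart from them all describe immunoprecipitated libraries, as which they were analysed. Each replicate's list and the pooled list hold 30000 entries and the thresholded list holds 4598 peaks, whose signal values (a score of the authors' peak caller, of unknown scale) started at 261.2 with a median of 538.3. Ranks below count from the highest signal value of a list, and in the replicates the 4598 highest-ranked entries are called the strongest. The best entry within 250 bp of a start site was taken for each gene. No read counts were given, so depth is unknown. The replicates differed in quality of calls, with 8577, 3063 and 3520 entries at a −log10 q-value of 2 or more in replicates 1, 2 and 3. Replicate 2 also ordered promoters differently by GC content, as described for the members further on. The M1BP gene itself was bound (signal value 577.5), with entries at ranks 1992 and 3101 in replicates 1 and 2 and none in replicate 3.

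M1BP was bound at most subunit genes and at almost none of their paralogs. Of the 32 subunit genes 22 were bound (68.8%), and 31.1% of all 13945 protein-coding genes were. The replicates' strongest entries marked 21, 23 and 20 of the 32 (65.6%, 71.9% and 62.5%; mean 66.7% ± 4.77, SD, n = 3), where the shares of all genes were 31.3%, 28.3% and 29.3%. Bound in the thresholded list and among the strongest entries of all 3 replicates were 16 subunit genes (50%), beside 20.8% of all genes. Another 5 of the bound genes were among the strongest in 2 replicates and 1, UQCR-C1, in 1 replicate. Of the 19 paralogs 1 was bound (5.3%), and the replicates' strongest entries marked 1, 0 and 1. For 14 of the 19 no replicate listed any entry near a start site, beside 5302 of all 13945 genes. The share of subunit genes lay above that of all genes in each replicate, and the share of paralogs lay below it in each. The SD describes how far the replicates differ for the same 32 genes, not how far a share of 32 genes can vary. These shares describe the lists and carry no test, since there is no second group to compare with.

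**Figure D1:**
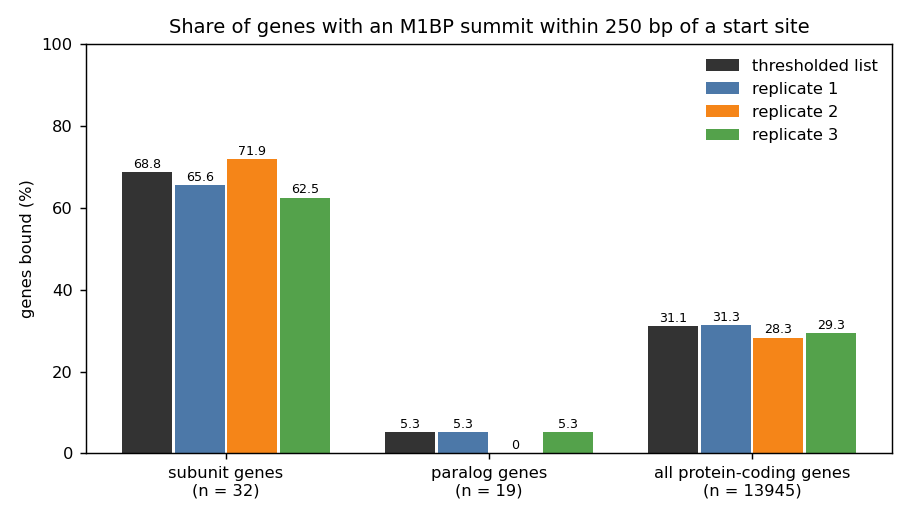
Share of genes bound by M1BP (vertical axis, %) for the 32 subunit genes, the 19 paralogs and all 13945 protein-coding genes; dark bars show the thresholded list and coloured bars the strongest entries of each replicate. In the thresholded list subunit genes stand at 68.8%, paralogs at 5.3% and all genes at 31.1%.

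In complex II, 3 of the 4 genes were bound, and the exception was a membrane anchor. SdhB, the iron-sulphur subunit, had the strongest peak of the complex (signal value 1328.8) and ranked 741, 575 and 905 in replicates 1, 2 and 3. SdhA, the flavoprotein that oxidises succinate, had a signal value of 788.3 and ranked 1571, 1971 and 1000, with its summit 155 bp upstream of the start site, the farthest of all bound subunit genes. Both were thus well inside the strongest entries of every replicate. The membrane anchor genes SdhC and SdhD behaved less evenly. At SdhC (775.8, chr3R:11209730-11210026 on dm6) the summit lay 2 bp upstream of the start site, with ranks of 1161 in replicate 1 and 1521 in replicate 3 and no entry in replicate 2. SdhD was unbound: its best entries ranked 6955 and 5204 in replicates 1 and 2, outside the strongest of both, and replicate 3 had none.

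In complex III, 6 of 7 genes were bound, all with summits no more than 50 bp from a start site. The strongest were UQCR-Q, a small subunit near the ubiquinone site (signal value 1728.8; chr3L:17474819-17475191), and UQCR-C2, a core protein (1589.4; chr3L:16584063-16584469). UQCR-Q ranked 468, 156 and 646, and UQCR-C2 ranked 318, 345 and 895. Both were within the first 1000 entries of every replicate, and both summits fell in an annotated exon of the gene itself, since each has a second start site farther upstream. The small accessory subunits UQCR-14 (862.2) and UQCR-6.4 (704.0) ranked 1447, 1180 and 1953, and 1864, 1250 and 3416. Cyt-c1, the haem subunit that reduces cytochrome c, had a weak peak (317.9) 6 bp upstream of its start site that ranked 5976, 3162 and 2576, outside the strongest entries of replicate 1. UQCR-C1, the other core protein, had the weakest peak of all bound subunit genes (297.5). It ranked 5396 and 2236 in replicates 1 and 2 and was not listed in replicate 3, and its summit lay nearer the start site of CycC (10 bp, in an exon of that gene) than its own (36 bp). The remaining gene, UQCR-11, the hinge protein, was unbound, with ranks of 5565 and 6840 in replicates 1 and 3, no entry in replicate 2, and no thresholded summit closer than 1841471 bp.

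Of the pair of neighbouring cytochrome c genes, 1 was bound and the other was not. Cyt-c-p, the cytochrome c of most tissues, had one of the strongest peaks among the members (signal value 2398.2, rank 88; chr2L:16719581-16720059), and its ranks in replicates 1, 2 and 3 were 96, 141 and 56. Cyt-c-d, known for its role in the male germ line, starts 4041 bp upstream on the same strand and was unbound, with a single entry that ranked 8173 in replicate 2. The nearest thresholded summit to Cyt-c-d lay 390 bp away (395.8) and 156 bp from CG31808, the gene on the opposite strand. The Cyt-c-p summit lay between both annotated genes, 122 bp upstream of the Cyt-c-p start site. The 200 bases before each start site are shown because only the bound one holds the core of Motif 1, GGTCACACT (capitals), with its first base 34 bp before the start site. Sequences are from the NCBI Release 6 assembly, which has dm6 coordinates, and read 5′ to 3′ toward the gene.
Cyt-c-p, chr2L:16719732-16719931, plus strand: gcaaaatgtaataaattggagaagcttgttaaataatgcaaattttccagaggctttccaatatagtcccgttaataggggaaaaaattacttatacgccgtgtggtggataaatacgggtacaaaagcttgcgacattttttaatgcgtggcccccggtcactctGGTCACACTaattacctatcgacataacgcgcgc
Cyt-c-d, chr2L:16715691-16715890, plus strand: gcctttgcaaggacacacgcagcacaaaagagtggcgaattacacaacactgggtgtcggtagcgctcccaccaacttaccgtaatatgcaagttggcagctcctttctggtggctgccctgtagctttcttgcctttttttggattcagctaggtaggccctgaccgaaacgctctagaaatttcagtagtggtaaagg

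**Figure D2:**
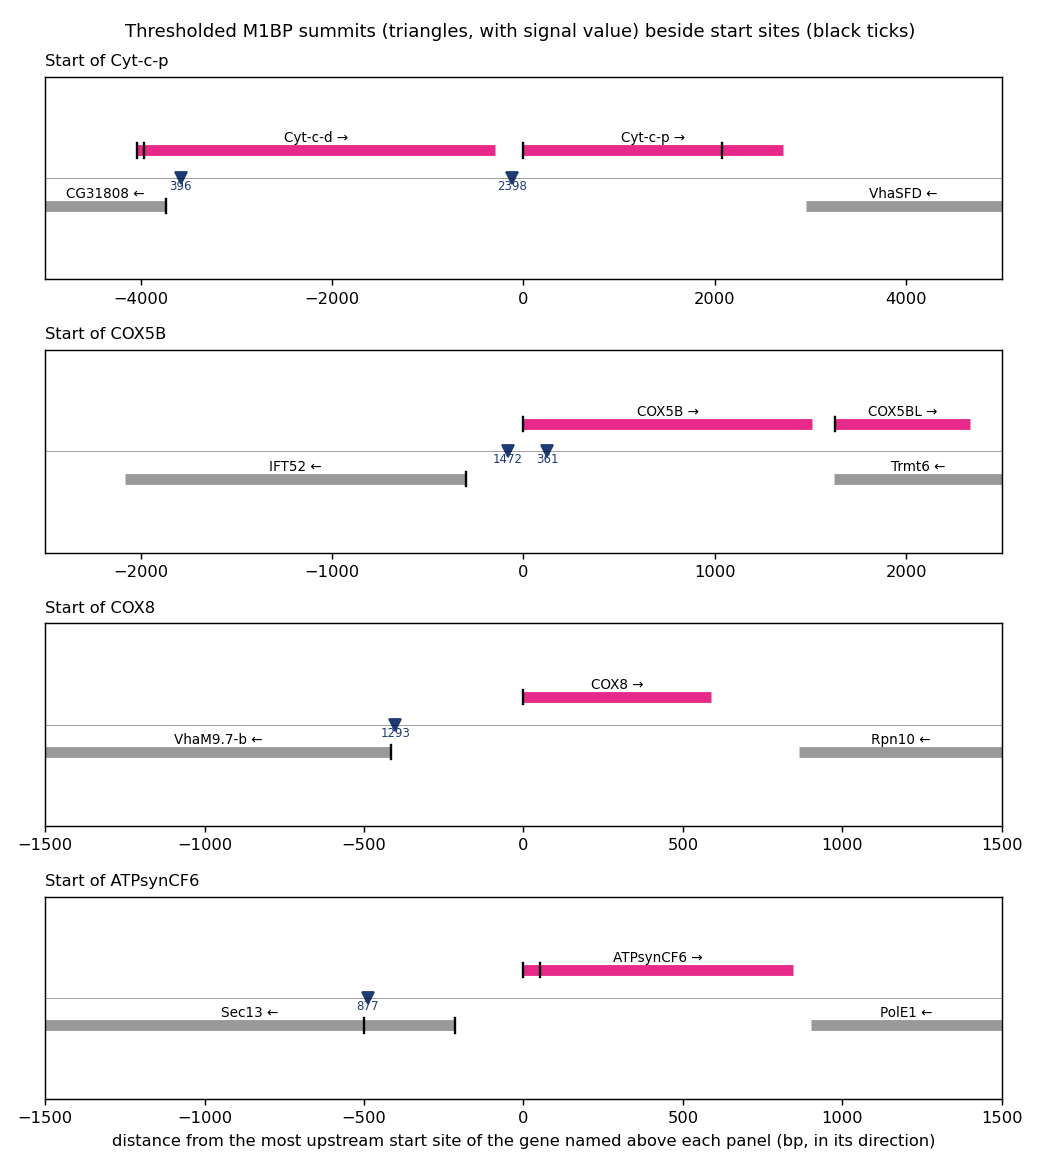
Maps around the start sites of Cyt-c-p, COX5B, COX8 and ATPsynCF6 (horizontal axis, bp from the most upstream start site of that gene in its direction); bars are genes with members in pink, ticks are start sites, and triangles are thresholded summits with their signal values. The Cyt-c-p summit (2398.2) lies 122 bp upstream of its start site, while the summits nearest to COX8 and ATPsynCF6 lie 402 and 488 bp away, at VhaM9.7-b and Sec13.

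In complex IV, 5 of 8 genes were bound and all 5 peaks were above the median of the thresholded list. COX7B (signal value 1508.2), COX5B (1472.5) and COX5A (1456.4) were nearly equal. Their ranks were 356, 979 and 411 for COX7B, 376, 1547 and 187 for COX5B, and 392, 1092 and 247 for COX5A. Each of these 3 genes thus stood lower in replicate 2 than in the other replicates. COX4 (963.2) ranked 783, 2884 and 514 and so also stood lowest in replicate 2. COX6B (565.7) stood highest there, with 2969 in replicate 1, 894 in replicate 2 and 23650 in replicate 3. The subunits encoded by these genes surround the catalytic core, which mitochondrial DNA encodes. The 3 unbound genes encode the small subunits 7A, 7C and 8. COX7A ranked 3451 in replicate 1 and 7316 in replicate 2, and COX7C ranked 13092 and 2601 in the same replicates, so each was among the strongest in 1 of them. Neither had an entry in replicate 3, and COX8 had none in any replicate.

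In the ATP synthase, 7 of 11 genes were bound and held both the strongest and some of the weakest peaks. ATPsynC encodes subunit c, copies of which form the proton-carrying ring of the membrane part. Its peak (chr3R:31219415-31220099) had the highest signal value of the whole thresholded list, 5320.7, and ranked 2, 1 and 1 in replicates 1, 2 and 3. The summit lay 42 bp upstream of the start site, between annotated genes. The 200 bases before that start site are shown because they carry the top-ranked peak; capitals mark the core of Motif 1, whose first base lay 166 bp before the start site and whose centre lay 120 bp from the summit.
ATPsynC, chr3R:31219631-31219830, minus strand: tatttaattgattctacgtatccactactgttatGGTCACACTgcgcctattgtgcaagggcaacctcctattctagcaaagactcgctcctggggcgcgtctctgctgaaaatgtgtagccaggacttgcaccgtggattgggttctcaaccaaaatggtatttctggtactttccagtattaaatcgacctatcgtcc

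ATPsynF, which encodes a subunit of the membrane part, came next in the complex with a signal value of 2548.8 and ranks of 92, 35 and 314, and ATPsynD, of the peripheral stalk, had 936.7 and the nearly equal ranks of 1192, 1225 and 1190. The other 4 bound genes were all below the list median. ATPsynB (442.1), of the peripheral stalk, ranked 3780, 2108 and 3544, and ATPsynE (389.3), of the membrane part, ranked 3144, 2927 and 2121. ATPsyngamma (305.8), the rotating central stalk, ranked 5520, 4485 and 3333, and ATPsynO (302.3), the peripheral stalk protein that confers oligomycin sensitivity, ranked 4188, 3243 and 12910. Each of the latter pair was outside the strongest entries of 1 replicate. The ATP synthase median was 442.1, below those of complex II (788.3), complex III (783.1) and complex IV (1456.4), which rest on 7, 3, 6 and 5 bound genes. This order depends on the name rule: with the bound subunits of other symbols described further on (RFeSP and ox of complex III, levy of complex IV, sun and blw of complex V), added after their values were seen, the medians were 829.7 for the ATP synthase, 788.3 for complex II, 1115.5 for complex III and 1209.8 for complex IV.

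The 4 unbound ATP synthase genes differed in how far they were from being called. ATPsynbeta, the catalytic subunit, had 1 entry, which ranked 2738 in replicate 1. It lies on chromosome 4, where replicates 1, 2 and 3 listed 285, 1 and 109 entries and the thresholded list 7. ATPsyndelta, of the central stalk, ranked 9248, 12451 and 3216, and ATPsynG, of the membrane part, had 1 entry, which ranked 2678 in replicate 2. Each of these 3 genes was therefore among the strongest entries of a single replicate. ATPsynCF6, of the peripheral stalk, had no entry in any replicate.

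**Figure D3:**
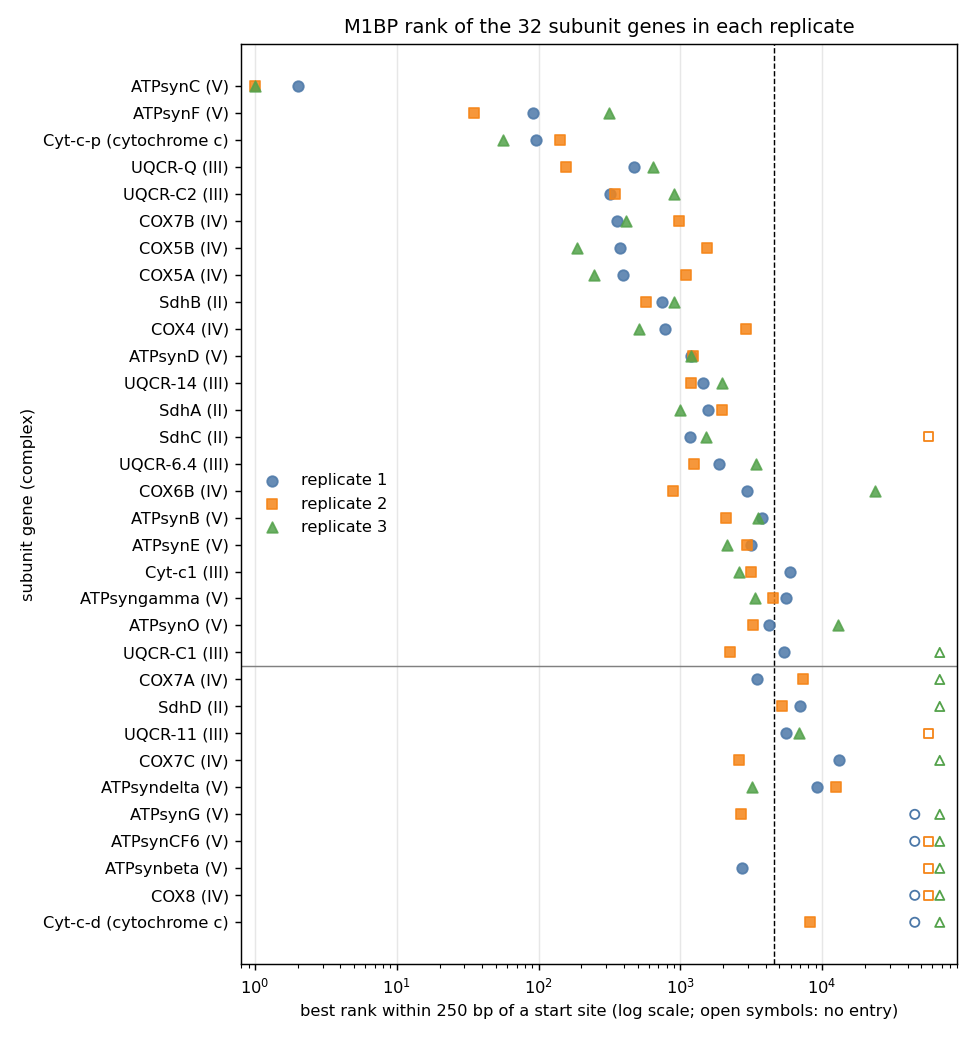
Rank of the best entry within 250 bp of a start site for each of the 32 subunit genes (horizontal axis, log scale, 1 is the strongest) in replicates 1, 2 and 3; the grey line separates bound from unbound genes, the dashed line marks rank 4598, and open symbols at the right mean no entry. ATPsynC ranks 2, 1 and 1, and 16 of the 22 bound genes lie left of the dashed line in all 3 replicates.

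Among the 22 bound subunit genes the median signal value was 899.4, beside 690.2 over all bound genes, and 16 (72.7%, beside 62.6% of all bound genes) were above the median of the list. Their median ranks in replicates 1, 2 and 3 were 1176.5, 1225.0 and 1000, over the 22, 21 and 21 of them that were listed. The medians over all bound genes were 1747.0, 1669.0 and 1691.5. Bound subunit genes therefore stood higher than the usual bound gene in every replicate. The ranges overlap fully, from 297.5 to 5320.7 in the subunit genes and from 261.2 to 5320.7 in all bound genes, and since both are parts of the same lists no test was made.

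Summits at the subunit genes lay close to the start site and mostly before it. The median distance was 33.5 bp, beside 57.0 bp over all bound genes, and 16 of 22 (72.7%, beside 45.1%) were within 50 bp. Within 100 bp were 19 (86.4%, beside 70.1%). The summit was upstream in 17 genes (77.3%, below the 84.3% of all bound genes). It was downstream in 5, which were UQCR-14, COX4, COX5A, ATPsynO and ATPsynE, by at most 40 bp. Distances are to the nearest own start site. At UQCR-C2, UQCR-Q and ATPsyngamma that was not the most upstream one, and the summit lay downstream of the latter. By position, 13 of the 22 summits lay between protein-coding genes, 8 in an exon of the gene itself and 1, at UQCR-C1, in an exon of another gene only. The median distance in the replicates, each with its own summits, was 30, 20 and 60 bp, beside 65, 50 and 78 bp over all bound genes. At ATPsynC and ATPsynF the replicates placed the summit within 20 bp of each other, at −42, −46 and −61 bp from the start site and at −46, −43 and −62 bp (negative is upstream). At COX7B they placed it at −106, −241 and −137 bp, and at SdhC replicates 1 and 3 placed it at −22 and −213 bp, so the spread between replicates there exceeded the median distance.

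**Figure D4:**
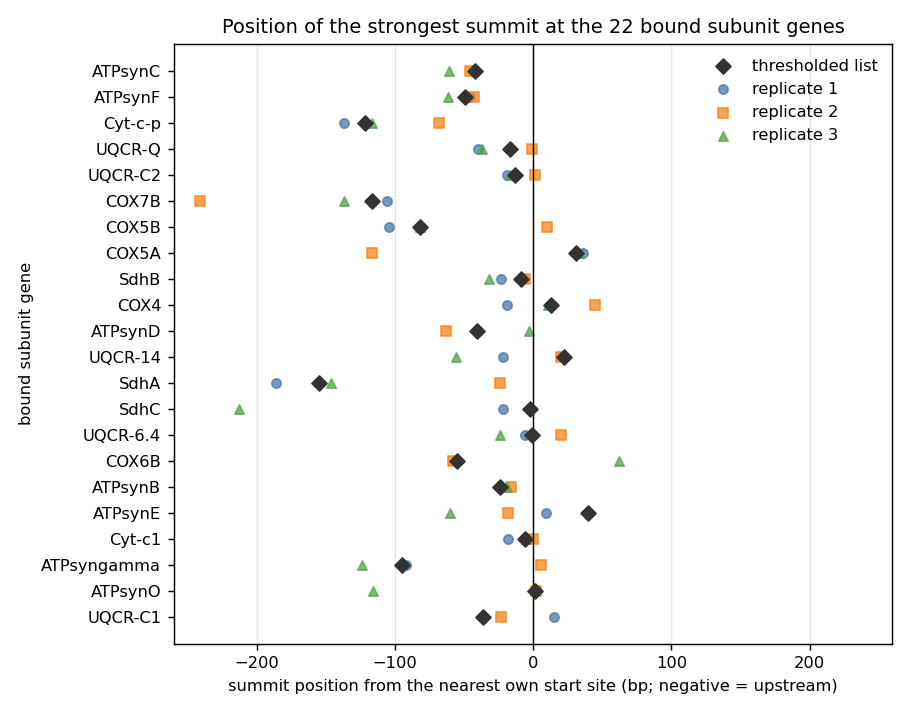
Signed distance from the start site to the strongest summit (horizontal axis, bp, negative is upstream) for each of the 22 bound subunit genes, in the thresholded list (diamonds) and in each replicate (coloured symbols). The thresholded summits run from 155 bp upstream to 40 bp downstream, with 16 of 22 within 50 bp, and at COX7B the replicate 2 summit lies at −241 bp.

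Many subunit genes share a promoter region with a neighbour, which bears on whose start site a peak marks. Of the 32 subunit genes 18 (56.2%) had a start site on the opposite strand within 1000 bp upstream, beside 35.2% of all genes. Of these 18, 12 were bound (66.7%), beside 56.0% of all genes so arranged. Without such a neighbour 10 of 14 were bound (71.4%), beside 17.6% of all genes. The share of bound subunit genes was thus about as high without a divergent neighbour as with one, while over all genes it was far lower without one. At 9 of the 22 bound genes (40.9%, beside 47.4% of all bound genes) the same peak also marked another protein-coding gene. At 19 of the 22 the nearest start site was that of the subunit gene, beside 3566 of all 4342 bound genes. The exceptions were UQCR-C1 (CycC), COX5A (glo, nearer by 1 bp) and COX6B (CG33932 and Rpp20, at 41 bp against 55 bp).

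Several unbound subunit genes lay just outside a neighbour's peak. A thresholded summit lay within 500 bp of 5 of the 10 (50%), beside 4.9% of the 9603 unbound genes in all, and each was closest to another gene's start site. These were COX7C (280 bp; oys, 14 bp), COX8 (402 bp; VhaM9.7-b, 13 bp), ATPsynG (392 bp; SCAR, 19 bp), ATPsynCF6 (488 bp; Sec13, 11 bp) and Cyt-c-d (390 bp; CG31808). The summit beside COX8 was strong, with a signal value of 1293.4, and marks a gene of the vacuolar proton pump. At ATPsyndelta the nearest summit lay 577 bp away, 19 bp from Ypel. Whether such peaks act on the respiratory gene was not tested.

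The 1 bound paralog was COX7AL, whose parent gene COX7A was unbound. Its peak was below the list median (signal value 339.0), with the summit 123 bp upstream of the COX7AL start site, which was not the start site nearest to it. It ranked 3237 and 2167 in replicates 1 and 3, and replicate 2 had no entry. In the other 18 paralogs only weak entries occurred, at SdhBL, Cyt-c1L, COX6AL and COX7AL2, ranked between 14403 and 28926. At COX7AL2 a thresholded summit (322.8) lay 532 bp from its start site, which was the nearest to that summit. No other unbound paralog had one within 1000 bp. Because the parent of the only bound paralog was unbound, none of the 19 pairs had both genes bound. The parent was bound in 11 pairs. These count levy for both COX6AL and COX6AL2 and sun for ATPsynepsilonL, parents that the name rule misses. COX5BL starts 1631 bp downstream of the start site of COX5B, which had a signal value of 1472.5, and was not listed in any replicate. Whether spacing between such genes matters was not tested. Of the 10 unbound subunit genes 6 have a paralog among the members, as do 8 of the 22 bound ones. The activity of these genes in the embryos was not measured here.

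The exact core of Motif 1 was present at a minority of the subunit genes, all of them bound. In the window from 250 bp before to 50 bp after the most upstream start site, on either strand, 8 of 32 subunit genes held GGTCACACT (25%), beside 6.05% of all genes. All 8 were among the 22 bound genes (36.36%, beside 18.31% of all bound genes), and 0 of the 10 unbound genes held it (beside 0.5% of all unbound genes). The match had the direction of the gene in 6 of the 8 and lay 9 to 130 bp from the summit, with a median of 81.5 bp. In the same window 12 of 32 (37.5%, beside 15.53%) matched with up to 1 mismatch. Counted so, the bound subunit genes (10 of 22, 45.45%) stood near all bound genes (40.81%), and 2 of the 10 unbound ones, COX8 and ATPsyndelta, also had a match (20%, beside 4.1% of all unbound genes). This depended on the window. Within 100 bp on each side of the start site used, 12 of the 22 bound genes (54.5%, beside 38.9% of all bound genes) matched with up to 1 mismatch. Of the 10 unbound genes 1 did, ATPsyndelta. For the exact core, the window around the start site used added UQCR-Q. With it 9 of the 22 bound genes (40.9%, beside 19.9%) held the exact core in either window. The matches are given with 10 bases on each side, in the direction of the core, capitals marking the core; that of UQCR-6.4 is not shown.
UQCR-Q, chr3L:17475068-17475096: gcccgtccacGGTCACACTggttgagacg
Cyt-c-p, chr2L:16719888-16719916: cggtcactctGGTCACACTaattacctat
COX4, chr2L:19958641-19958669: ttcgagatgtGGTCACACTtctctgcatg
COX5A, chr3R:11819313-11819341: atttaattgcGGTCACACTgcatcttcaa
COX5B, chr2L:6557802-6557830: actttaccgcGGTCACACTgatccatagc
COX7B, chr3L:17425476-17425504: acaacacaacGGTCACACTgttcaacaca
ATPsynD, chr3R:19094884-19094912: ccctcgggtcGGTCACACTatcagctgcc
ATPsynC, chr3R:31219778-31219806: ctactgttatGGTCACACTgcgcctattg

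Bound subunit genes with the exact core in the window at the most upstream start site had higher signal values than those without. The median was 1464.4 over 8 genes (704.0 to 5320.7) with it and 670.7 over 14 genes (297.5 to 2548.8) without it, and the ranges overlapped. Over all bound genes the medians were 1136.4 with the core and 601.4 without. The 14 genes without it include UQCR-Q (1728.8), whose core lay only in the window around the start site used. Peaks without the exact core in either window included some of the strongest, such as ATPsynF and UQCR-C2. Both of these genes matched with up to 1 mismatch within 100 bp of the start site used. Other elements stood nearer the shares of all genes. The DNA replication-related element (DRE, TATCGATA) occurred at 3 of 32 subunit genes (9.38%, beside 9.36%), the E-box CAGCTG at 7 (21.88%, beside 17.66%) and TATAAA at 16 (50%, beside 45.77%). Among the 22 bound subunit genes the DRE occurred at 2 (9.09%), below the 17.85% of all bound genes. The E-box occurred there at 4 (18.18%, beside 22.96%) and TATAAA at 11 (50%, beside 44.73%). The element described at fly nuclear respiratory genes, searched as TTACATAA, TTACGTAA, TTATATAA and TTATGTAA, occurred at 0 of the 32 subunit genes and 0 of the 19 paralogs, beside 5.18% of all genes. A window without these letters says nothing about binding of a factor.

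The replicates ranked the bound subunit genes differently according to GC content. Over the 20 bound subunit genes listed in all replicates, Spearman's rho between the GC content within 100 bp of the start site and the log2 ratio of a gene's rank to its ranks in the other replicates was 0.43, −0.51 and 0.38 in replicates 1, 2 and 3. Over the 3745 bound genes so listed it was 0.36, −0.52 and 0.47. A negative value means that GC-rich promoters stood higher in that replicate. The values for the replicates are tied, because each ratio is taken against the other replicates. A trend in 1 replicate alone would bring values of opposite sign in the others, so they are not separate results. COX4, with the lowest GC content of the members bound (28.4%), ranked 2884 in replicate 2 and 783 and 514 in the others, while COX6B, with the highest (49.3%), ranked 894 in replicate 2 and 2969 and 23650 in the others. The points share their libraries and lists, and what part GC content has in these ranks was not tested. The median GC content was 41.0% at bound and 36.6% at unbound subunit genes, 33.8% at paralogs and 41.3% over all genes.

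**Figure D5:**
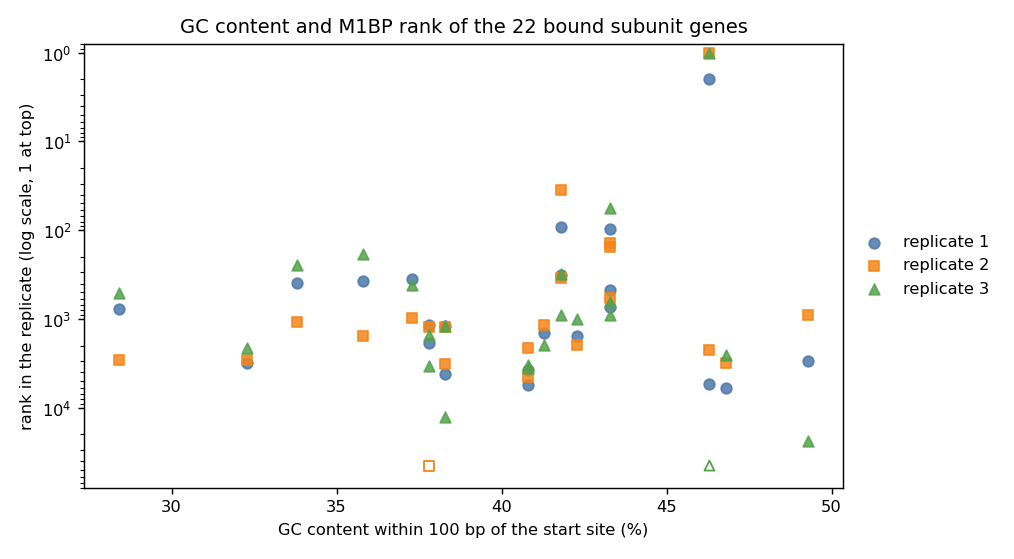
GC content within 100 bp of the start site (horizontal axis, %) and rank in each replicate (vertical axis, log scale, 1 at the top) for the 22 bound subunit genes; open symbols mark genes without an entry in that replicate. At the low-GC end COX4 (28.4%) ranks 2884 in replicate 2 and 783 and 514 in replicates 1 and 3.

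Other genes of the same pathway were counted in lists taken from textbook knowledge, to be read beside the 31.1% of all genes bound. Subunits of complexes II to V with historical names that the name rule misses were bound in 5 of 6 cases (83.3%). They were blw, the catalytic partner of ATPsynbeta (signal value 2604.5; ranks 59, 78 and 58), RFeSP, the Rieske protein of complex III (1637.1; 408, 261 and 807), ox (1368.8), sun (829.7) and levy (611.4). The exception was cype, the complex IV subunit 6C, whose only entry ranked 3274 in replicate 3. The α subunit gene blw was thus near the top of every replicate, whereas its partner ATPsynbeta had an entry in replicate 1 alone.

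Assembly and maturation factors were bound in 13 of the 15 cases matched by name (86.7%, beside 31.1% of all genes), of 20 symbols listed. The strongest entries of replicates 1, 2 and 3 marked 13, 7 and 11 of the 15, so replicate 2 marked fewer. Peaks at the bound ones were weaker (median 442.0), led by Ccdc56, a complex IV assembly factor, with 1771.4. The unbound ones were Sdhaf3 and Cox11, and the neighbours sloth1 and sloth2 share 1 peak (299.2). Of citric acid cycle and pyruvate dehydrogenase genes, the 4 Sdh genes included, 15 of 18 were bound (83.3%), led by ScsbetaG (1423.7) and Pdhb (1379.4), and Idh3a, Fum1 and SdhD were unbound. Of the genes that carry phosphate and nucleotides across the mitochondrial membranes 2 of 5 were bound (40%, near the share of all genes), namely Mpcp2 (2209.1) and porin (1814.6). The adjacent adenine nucleotide carrier genes sesB and Ant2 were unbound, but they share entries that ranked 2270 and 2069 in replicates 1 and 3, so that 4, 2 and 4 of the 5 were among the strongest entries of replicates 1, 2 and 3. Complex I genes, taken as all symbols beginning with ND-, were bound in 22 of 40 cases (55.0%) with a median signal value of 730.4. They include 6 symbols with an added L, L1 or L2, of which 0 were bound, and without these 22 of 34 were bound (64.7%), close to the 68.8% of the subunit genes of complexes II to V. Regulators of mitochondrial gene expression were bound in 5 of 7 matched cases (71.4%), led by srl, the fly PGC-1 coactivator (2020.3; ranks 269, 103 and 637), and ewg, the relative of mammalian NRF1 (1707.5; 457, 6210 and 361). Ewg thus stood far lower in replicate 2 than in the others. The strongest entries of replicates 1, 2 and 3 marked 5, 3 and 4 of the 7 regulators. They marked 15, 13 and 12 of the 18 citric acid cycle and pyruvate dehydrogenase genes. Of the 40 complex I genes they marked 24, 20 and 20. These lists differ in size and none was tested against another.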

How the data were processed

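The data were 5 peak lists from 3 biological replicates of 1 group, on dm6. Per the deposited notes, the authors called a list of 30000 entries in each replicate and in the pooled reads against 1 control, and filtered these by irreproducible discovery rate (IDR) to 4598 peaks, which are the 4598 strongest of the pooled list. Neither aligner nor peak caller, IDR threshold or any version is given in the sources used here. Each deposited signal value is a score of the authors' peak caller, used only to rank and describe peaks within a list. The deposited −log10 q-value (from the caller's p-values) served to count confident entries, and the deposited summit offset in bp gave summit positions. Depth per sample is unknown, so no interval could be set on it.

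Start sites (19253, counted once per arm, position and strand) came from the Ensembl release 115 annotation BDGP6.54 and sequence from the NCBI Release 6 assembly, in which 99.9% of 16213 annotated start codons read ATG. Counts were taken by summit to start-site distance, in the thresholded list and in the 4598 strongest entries of each replicate (mean and SD, n = 3). Motifs were searched on both strands by exact match. The core is part of the longer Motif 1 consensus, and matches of TATAAA and TTATATAA can overlap. Every member could be named; values in each replicate were given for the strongest, the unbound and the unevenly ranked ones. The members, lists and alternatives were chosen with earlier results of these data known, and nothing was tested for significance. Distance, threshold, replicate, start-site and window choices were varied. The scripts were tested on simulated peaks. The work used Python 3.11.15 with pandas 2.3.3, numpy 2.4.6, matplotlib 3.10.9 and scipy 1.17.1.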

Additional observations from a re-analysis of the deposited data

How the results depend on the processing

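The count of bound subunit genes, 22 of 32, stayed within 1.5 times under each alternative: 20 with the summit within 100 bp (62.5%, beside 23.3% of all genes), 27 within 500 bp (84.4%, beside 34.5%), 16 with peaks above the median signal value (50%, beside 19.5%), 21 from the most upstream start site (65.6%, beside 29.5%), 19 where the nearest start site had to be the gene's own (59.4%, beside 25.6%), and 20 to 23 in 1 replicate alone. Requiring both remaining replicates after leaving 1 out gave 17 to 18 (53.1% to 56.2%, beside 21.9% to 26.8%). The 5 genes gained at 500 bp were those beside a neighbour's peak. The 1 bound paralog, COX7AL, was lost (0 of 19) at 100 bp, with peaks above the median, in replicate 2 alone and where the nearest start site had to be its own, and leaving out 1 replicate gave 0 to 1, with 0 when replicate 1 or 3 was the one left out. By complex, 51 of 55 counts stayed within 1.5 times; the other 4 were cytochrome c with 0 at 100 bp and 2 at 500 bp, complex IV with 3 by the nearest start site and complex V with 3 of 11 above the median (27.3%, beside 19.5% of all genes). The core of Motif 1 was at 8 subunit genes (25%, beside 6.05% of all genes). It was at 7 with the full consensus (21.88%, beside 4.5%) or the window of 100 bp around the start site used (21.88%, beside 5.69%). With up to 1 mismatch it was at 12 (37.5%), and the share of all genes rose as well, to 15.53%. No paired analysis was possible because the series has 1 group.

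The main limits are the unknown depth and score scale, the control shared by all replicates, the label conflict over the libraries, and promoters shared with neighbours. The unbound calls are those of a thresholded list: 5 of the 10 unbound subunit genes were among the strongest entries of 1 replicate. Of all 9603 unbound genes, 940 were among the strongest entries of at least 1 replicate. Gene activity was not measured.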
